A study of Rattus norvegicus with 36 samples.

Results

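The late maturation of rat leg muscle was read from 6 of the 36 arrays in the series, the 3 arrays of leg muscle at postnatal day 28 and the 3 at day 45. The arrays were chosen by the muscle and the age in their titles, and a difference is always the log2 intensity at day 45 minus that at day 28. The whole series followed 2 muscle sources of the rat, the extraocular muscles that move the eye (EOM) and a leg sample of gastrocnemius with soleus, at postnatal days 0, 7, 14, 21, 28 and 45. Total RNA of each of these 12 groups was hybridised to 3 Affymetrix RG-U34A arrays. The strain, the sex and the treatment of the rats are not given in the sources used here, nor is it said that the 3 arrays of a group came from separate animals, so p-values measure the spread between these arrays, which may be technical.

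After birth, skeletal muscle replaces the embryonic and neonatal forms of myosin and other contractile proteins with adult fast and slow forms. Its resident precursor cells divide and fuse with growing fibres until they become quiescent, and the fetal growth factors that act in this period are shut down. From weaning onwards leg muscle also takes up its adult pattern of fuel use, in which fatty acids and insulin-stimulated glucose uptake share the supply. The gastrocnemius is a mixed, mostly fast muscle, whereas the soleus is mostly slow.

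Of 6667 probe sets tested, 132 (1.98%) passed an adjusted p of 0.05 in limma's moderated test with Benjamini-Hochberg adjustment. Of these, 63 (0.945%) were higher and 69 (1.03%) lower at day 45, and 105 (1.57%) differed by 2-fold or more. In 129 of the 132 the 3 arrays of one age did not overlap the 3 of the other, against 1209 (18.1%) of all probe sets tested, 811 (12.2%) of them higher and 398 (5.97%) lower. The deposited values had been scaled to a common trimmed mean of 1499.4 to 1501.1, and the median of all differences was 0.12. When arrays were scaled to a common median instead, that median became -0.05 and the split moved to 22 higher and 90 lower. Quantile normalisation gave 41 higher and 91 lower. A statement that a gene rose is therefore made relative to the deposited scaling. The 6 arrays fitted alone gave 0 calls in limma, with 753 probe sets at an unadjusted p under 0.05, against 999 when all 36 arrays set the spread. The count also rested on single arrays and was 59 without day 45 replicate 2, 66 without day 45 replicate 1 and 86 without day 28 replicate 1.

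**Figure D1:**
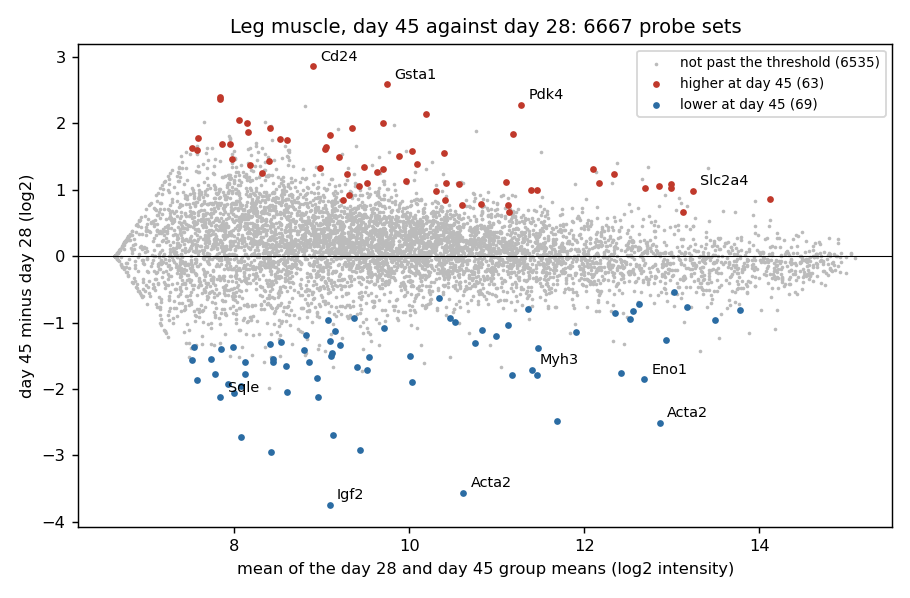
Difference between day 45 and day 28 in leg muscle (log2, vertical axis) against the mean of the group means (log2 intensity, horizontal axis) for 6667 probe sets. Red marks the 63 probe sets higher and blue the 69 lower at day 45 past the threshold, and the deepest falls belong to Igf2 and Acta2.

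Array medians were 428.3 to 509.0 at day 28 and 503.3 to 541.1 at day 45, and 17.4% to 23.3% against 15.5% to 19.1% of values lay at or under the floor of intensity 100 that was set before taking logs. Correlations of log2 values were 0.9152 to 0.9409 within day 28, 0.9067 to 0.9263 within day 45 and 0.8914 to 0.9355 between the ages. The ratio of the 5′ to the 3′ beta-actin control probe set, a sign of RNA integrity, was 1.02 to 1.11 at day 28 and 0.766 to 0.961 at day 45, without overlap, and its part in the results was not tested. The arrays read as skeletal muscle, with Des, the muscle intermediate filament desmin, at 10634 to 18492 and the fast myosin Myh2 at 24129 to 32652 over the 6 arrays. Both genes are bright in EOM too, so they do not tell leg from EOM. Ckm, muscle creatine kinase, was listed between 0 and 0.4 on 5 of the 6 arrays and at 1049.8 on day 45 replicate 1. Acta1, skeletal alpha-actin, read only 752.9 to 1062.3 over the 6 arrays.

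The steepest fall was that of Igf2, the fetal growth factor insulin-like growth factor 2. Its probe set read 3653, 4894 and 446.2 on the day 28 arrays and 126.3, 210.2 and 124.3 on the day 45 arrays. Every day 45 array lay below every day 28 array, although day 28 replicate 3 was far lower than the other two. Igf2 fell by 3.75 ± 0.64 (SE, means of 3 and 3 arrays, adjusted p = 0.00145), which is 13.4-fold. Here and below the SE rests on the spread within groups over all 36 arrays, not on the 6 arrays listed. The other 4 Igf2 probe sets tested did not pass, with differences from -0.77 to 0.56. The same probe set had read 6258, 5454 and 5641 in leg at day 0 and still 6746, 5424 and 3609 at day 21. Other regulators of fetal growth fell with smaller differences. Gpc3, glypican 3, a cell-surface proteoglycan that restrains growth, went from 693.8 to 1151 at day 28 to 281.1 to 443.6 at day 45 and fell by 1.45 ± 0.22 (adjusted p = 0.000342), while its other 2 probe sets stood at 0.53 and 0.52 and did not pass. Plagl1, a zinc-finger transcription factor expressed from the paternal allele, read 4637, 3124 and 2284 at day 28 and 1878, 1274 and 1606 at day 45. Plagl1 fell by 1.03 ± 0.22 (adjusted p = 0.0118), and the 2 ages did not overlap. It was called in 1 of its 2 probe sets. Grb10, an imprinted adaptor that dampens insulin and IGF receptor signals, was at 10845 to 12645 at day 28 and 5711 to 8056 at day 45, a fall by 0.76 ± 0.16 (adjusted p = 0.0106).

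On the list of insulin-like growth factor and growth hormone genes, 0 of 22 measured genes rose and 1, Grb10, fell when each gene was represented by its brightest probe set, with a median difference of 0.02 against 0.12 over all 3885 genes tested. By brightest probe set 39 of all 3885 genes (1%) rose and 37 (0.952%) fell, and at an unadjusted p under 0.05, the level used for lists below, 388 of the 3885 were higher and 195 lower. Igf1, the growth hormone target, stood at -0.45 ± 0.35 (adjusted p = 0.585), and Dlk1, an imprinted inhibitor of differentiation, at -1.02 ± 0.61 (adjusted p = 0.448). Grb14, a relative of Grb10 that blocks the insulin receptor, went the other way. Grb14 read 606.9, 687.9 and 732.4 at day 28 and 1677, 1639 and 1184 at day 45 and rose by 1.14 ± 0.23 (adjusted p = 0.00662), with all day 45 arrays above all day 28 arrays. Plagl1 lost its call without day 28 replicate 1 or day 45 replicate 2, and Grb10 without day 45 replicate 1 or under quantile normalisation.

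Genes of cell division lay lower at day 45. Of the 27 measured genes on the cell cycle and DNA synthesis list 23 (85.2%) were below 0, against 39.7% of all genes tested, and the list median was -0.41 against 0.12. Past the threshold were 2 by their brightest probe set, both lower, and 0 higher, and 9 were lower and 1 higher of 27 at an unadjusted p under 0.05, against 195 lower and 388 higher of all 3885. Cdk1, the kinase that drives entry into mitosis, read 919.0, 920.8 and 705.4 at day 28 and 482.9, 403.9 and 293.8 at day 45. Cdk1 fell by 1.13 ± 0.25 (adjusted p = 0.0154), without overlap. Dut, the dUTPase that keeps uracil out of new DNA, fell by 0.92 ± 0.25 (adjusted p = 0.0474), from 1803 to 2251 at day 28 to 796.9 to 1389 at day 45.

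A further 3 genes of this list passed through a probe set other than their brightest. Ccnd1, cyclin D1, which moves cells through G1, read 2144, 1594 and 1534 at day 28 and 650.6, 432.7 and 821.5 at day 45 in that probe set, and fell by 1.50 ± 0.23 (adjusted p = 0.000342). The Ccnd1 probe sets disagreed, since another stood at 0.65 ± 0.27 with an unadjusted p of 0.0216 and the brightest at -0.52 ± 0.25 (adjusted p = 0.320). Ccnd3, cyclin D3, which takes part in myoblast differentiation, read 2121, 2404 and 1609 at day 28 and 773.8, 318.1 and 655.9 at day 45. Ccnd3 fell by 1.89 ± 0.32 (adjusted p = 0.00145), whereas its brightest probe set stood at -0.25 ± 0.17. Tubb5, a tubulin of dividing and migrating cells, fell by 1.08 ± 0.29 (adjusted p = 0.0427), and its brightest probe set stood at -0.70 ± 0.24 (adjusted p = 0.144). Top2a, the topoisomerase of mitotic chromosomes, at -0.66 ± 0.26 (adjusted p = 0.216) and Pcna, the polymerase clamp, at -0.58 ± 0.31 (adjusted p = 0.378) did not pass. Off the list, Hist1h2af, a replication-dependent histone H2A, had the largest fall of any gene by its brightest probe set. It read 1906, 2279 and 1606 at day 28 and 306.9, 317.7 and 167.3 at day 45, and fell by 2.91 ± 0.70 (adjusted p = 0.0226). Asf1b, a histone chaperone of proliferating cells, fell by 1.56 ± 0.32 (adjusted p = 0.00748), and Ssrp1, a subunit of the FACT histone chaperone, by 1.55 ± 0.37 (adjusted p = 0.0217). Also off the list, Dlgap5, a protein of the mitotic spindle, went the other way. Dlgap5 rose by 1.31 ± 0.34 (adjusted p = 0.0384), without overlap, a call kept in 9 of 17 alternative settings. Cdk1 lost its call without day 28 replicate 1, day 28 replicate 2 or day 45 replicate 3. Hist1h2af lost it without day 28 replicate 1 or 2 or any 1 of the day 45 arrays, Dut without any 1 of the 6 arrays but day 45 replicate 2, Tubb5 without any 1 but day 28 replicate 3, and Ssrp1 without any 1 but day 45 replicate 3. Asf1b lost its call at a floor of 200, where its difference was -0.66 (adjusted p = 0.164).

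**Figure D2:**
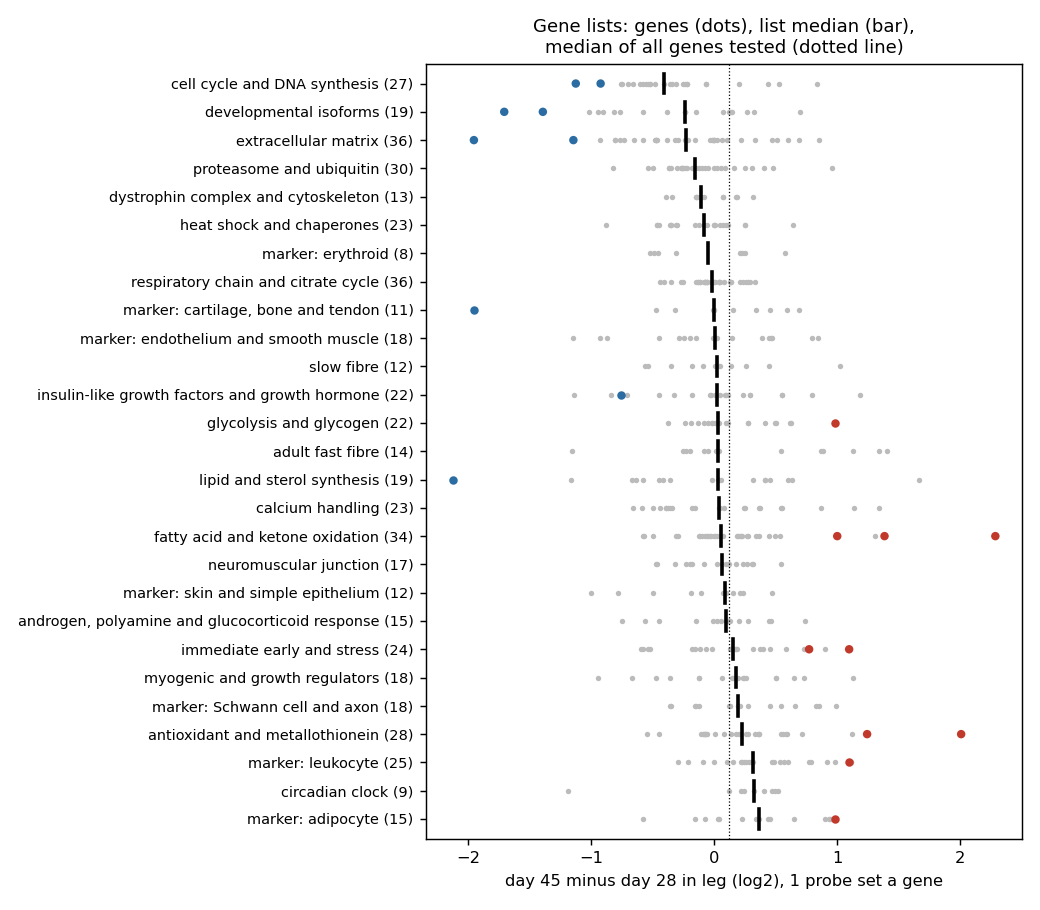
Differences of single genes (dots, log2, day 45 minus day 28 in leg) by gene list, with the number of genes measured in brackets and the list median as a black bar. Coloured dots passed the threshold, red higher and blue lower, and the cell cycle list has the lowest median at -0.41.

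Among developmental forms of contractile and metabolic proteins, too, the calls by brightest probe set were all falls. Of 19 measured genes on that list 2 fell, 0 rose and 12 (63.2%) lay below 0, against 39.7% of all genes tested. The list median was -0.24 against 0.12. Myh3, embryonic myosin heavy chain, read 4867, 5888 and 4095 at day 28 and 2058, 689.4 and 2369 at day 45. The 2 ages did not overlap, and Myh3 fell by 1.71 ± 0.39 (adjusted p = 0.0162). A second Myh3 probe set fell by 1.67 ± 0.33 (adjusted p = 0.00660), and the other 3 stood between -0.48 and -0.25. Myh8, neonatal myosin heavy chain, read 291.4, 297.8 and 597.4 at day 28 and 167.4, 170.4 and 88.7 at day 45, the last at the floor. Myh8 fell by 1.39 ± 0.29 (adjusted p = 0.00734), at least 2.63-fold. Between days 21 and 28 Myh8 fell by 2.56 ± 0.29 (adjusted p = 4.02e-06), an interval that shares the day 28 arrays. Myh8 had read 18091, 22872 and 21472 in leg at day 0. In EOM both genes stayed bright, with Myh3 at 12228 to 30642 and Myh8 at 9017 to 10817 on the day 45 arrays. The leg change minus the EOM change was -1.47 ± 0.55 for Myh3 (adjusted p = 0.529) and -1.65 ± 0.40 for Myh8 (adjusted p = 0.150), and neither passed.

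Eno1, alpha-enolase, the embryonic enolase that gives way to the muscle form, read 9521, 14887 and 13890 at day 28 and 4237, 2480 and 3939 at day 45 in a probe set that was not its brightest. There Eno1 fell by 1.86 ± 0.26, with an adjusted p of 0.000148 that was the smallest of any probe set with 1 gene symbol, and its brightest probe set stood at -0.58 ± 0.17 (adjusted p = 0.0662). The adult enolase Eno3 was at 0.01 ± 0.20. Mybph, myosin-binding protein H, a thick-filament protein, fell in both of its probe sets, by 1.75 ± 0.39 (adjusted p = 0.0136) and 1.27 ± 0.26 (adjusted p = 0.00678). The first of these read 9340, 9084 and 12073 at day 28 and 1939, 3056 and 4509 at day 45, and the ages did not overlap. Myl6b, an alkali myosin light chain of embryonic and slow muscle, fell by 1.84 ± 0.50 (adjusted p = 0.0497), with day 45 replicate 3 at 759.1 close to the lowest day 28 array at 781.4. Myog, the differentiation factor myogenin, read 4198, 3741 and 3120 at day 28 and 1918, 1504 and 2385 at day 45 and stood at -0.94 ± 0.31 (adjusted p = 0.121). Myh3 in its brightest probe set lost its call without day 28 replicate 2 or day 45 replicate 2, Myh8 without day 28 replicate 3 or at a floor of 200, and Myl6b without any 1 of the 6 arrays but day 45 replicate 3, at a floor of 200, without a filter and without a trend in the prior.

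The upstream window of Myh3 is shown because its product is the classical embryonic isoform, and its signal fell in 2 of its 5 probe sets. It spans chr10:52268935-52269184 on the plus strand of GRCr8, the 250 bases before the gene's start in RefSeq. Capitals mark the single match to the E-box CANNTG, the form bound by myogenic factors such as myogenin, whose first base lies 192 bases upstream. This motif is its own reverse complement, and 65.5% of 33469 windows of the same length hold it.
Myh3: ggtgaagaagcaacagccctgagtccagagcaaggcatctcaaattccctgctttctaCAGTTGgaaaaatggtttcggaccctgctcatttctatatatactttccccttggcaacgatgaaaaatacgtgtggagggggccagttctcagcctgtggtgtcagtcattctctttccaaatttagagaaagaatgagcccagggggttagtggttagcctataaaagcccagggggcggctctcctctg

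Adult isoforms showed no called change. On the adult fast fibre list 0 of 14 measured genes passed in limma, with 1 higher and 0 lower at an unadjusted p under 0.05 and a median of 0.03. On the slow fibre list 0 of 12 passed, with 1 higher and 1 lower at that level and a median of 0.02. Myh4, the fastest myosin, read 25931, 30560 and 27520 at day 28 and 29848, 26764 and 22974 at day 45, a difference of -0.08 ± 0.37 with full overlap. Myh2 stood at -0.19 ± 0.27. Myh1, the IIx myosin, read 2342, 1675 and 1150 at day 28 and 2954, 3303 and 2877 at day 45. Its arrays did not overlap, but the difference of 0.88 ± 0.34 did not pass (adjusted p = 0.208). Myh7, the slow myosin, was at 24082 to 27396 at day 28 and 13381 to 21022 at day 45, also without overlap and without a call (-0.57 ± 0.21, adjusted p = 0.203). Tnnt3, fast troponin T, read 25365, 14778 and 30389 at day 28 and 9447, 8808 and 12241 at day 45. Its arrays did not overlap either, and its difference of -1.16 ± 1.04 did not pass (adjusted p = 0.638). Off these lists, 2 genes of sarcomere upkeep rose. Tcap, telethonin, which caps titin at the Z-disc, read 11506, 12603 and 15996 at day 28 and 27820, 25765 and 19486 at day 45. Tcap rose by 0.86 ± 0.21 (adjusted p = 0.0247), with no overlap. Klhl41, a Kelch protein that stabilises thin filaments, rose in both of its probe sets, by 0.67 ± 0.18 (adjusted p = 0.0420) and 1.09 ± 0.24 (adjusted p = 0.0152). Both Tcap and Klhl41 lost their calls under median scaling and without day 28 replicate 1 or 2 or day 45 replicate 1 or 2.

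**Figure D3:**
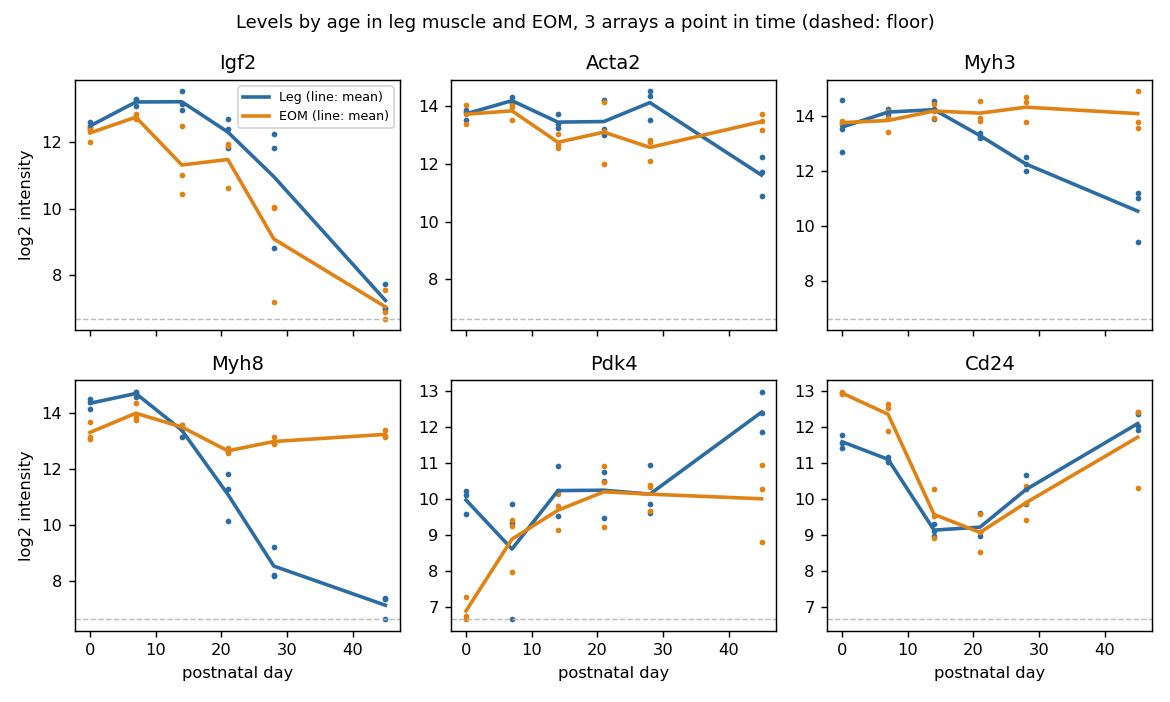
Log2 intensity by postnatal day for Igf2, Acta2, Myh3, Myh8, Pdk4 and Cd24 in leg (blue) and EOM (orange), with 1 dot per array, lines through the means of 3 arrays and the floor dashed. In leg the means of Myh3 and Myh8 were already lower at day 28 than at day 7, those of Acta2 and Pdk4 changed most after day 28, and that of Cd24 was lowest at days 14 and 21.

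Acta2 and Myl9, the actin and the myosin light chain of smooth muscle, fell in leg while they did not in EOM. Acta2 is also expressed by immature skeletal fibres. Its probe set read 23358, 11629 and 20573 at day 28 and 3341, 1893 and 4810 at day 45, and the highest day 45 array lay well under the lowest day 28 array. Acta2 fell by 2.51 ± 0.37 (adjusted p = 0.000342), 5.68-fold. A second Acta2 probe set went from 6887, 3004 and 7683 to 414.5, 731.5 and 315.6 and fell by 3.57 ± 0.65 (adjusted p = 0.00263), while the third and brightest, at -0.87 ± 0.30, did not pass (adjusted p = 0.139). In EOM the first probe set read 7325, 6977 and 4356 at day 28 and 11476, 13605 and 9102 at day 45, a difference of 0.89 ± 0.37 (adjusted p = 0.418). The leg change minus the EOM change was -3.40 ± 0.53 and passed (adjusted p = 0.00143). For the second probe set it was -4.36 ± 0.91 (adjusted p = 0.0664) and for the brightest -0.99 ± 0.42 (adjusted p = 0.647), and neither passed.

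Myl9 read 5249, 4563 and 4006 at day 28 in leg and 1527, 1953 and 1808 at day 45, and fell by 1.38 ± 0.24 (adjusted p = 0.00145). In EOM Myl9 read 1305, 2082 and 2300 and then 2330, 3420 and 4737, a difference of 0.86 ± 0.24 (adjusted p = 0.134), and the 2 changes differed by -2.25 ± 0.33 (adjusted p = 0.00116). The brightest Myl9 probe set stood at -1.15 ± 0.57 in leg (adjusted p = 0.342). Other smooth muscle genes gave no call in leg, with the actin-binding Tagln at 0.01 ± 0.28, calponin Cnn1 at 0.02 ± 0.48, smooth muscle myosin Myh11 at 0.14 ± 0.41 and gamma-actin Actg2 at -0.93 ± 0.47 (adjusted p = 0.348). Over the endothelium and smooth muscle list of 18 measured genes the summed intensity was 49948 to 62536 at day 28 and 40310 to 49546 at day 45. That sum includes Acta2 and Myl9 themselves and desmin, Des. Of the 18 genes 9 (50%) lay above 0, against 60% of all genes tested, with a median of 0.001 against 0.12. The part of the amount of vessel tissue in the falls of Acta2 and Myl9 was not tested, and fewer cells of a type and less RNA per cell cannot be told apart in whole muscle.

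The Acta2 window is shown because its gene made the largest change that differed between the muscles. It spans chr1:241172504-241172753 on the minus strand of GRCr8, the 250 bases before the gene's start in RefSeq. Capitals mark its 2 matches to CCNNNNNNGG, the open form of the CArG box that serum response factor binds in muscle actin genes. Their first bases lie 134 and 84 bases upstream, the motif is its own reverse complement, and 65.1% of 33469 windows of this length hold at least 1 match. The Myh3 window holds 0.
Acta2: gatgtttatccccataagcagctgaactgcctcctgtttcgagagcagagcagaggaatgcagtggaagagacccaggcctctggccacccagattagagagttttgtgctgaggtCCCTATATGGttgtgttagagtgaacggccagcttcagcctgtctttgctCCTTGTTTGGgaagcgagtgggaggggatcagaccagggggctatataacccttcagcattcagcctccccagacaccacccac

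Sqle, squalene epoxidase, an early oxygen-requiring step of cholesterol synthesis, was the third gene whose change differed between the muscles. It read 611.1, 481.8 and 373.4 at day 28 and 54.4, 55.6 and 133.1 at day 45, with 2 of the day 45 arrays at the floor. Sqle fell by 2.12 ± 0.38 (adjusted p = 0.00215), at least 4.36-fold. In EOM Sqle read 149.3, 556.0 and 468.5 and then 559.4, 629.0 and 479.7, and the difference between the changes was -2.83 ± 0.53 (adjusted p = 0.0207). On the lipid and sterol synthesis list Sqle was the 1 gene of 19 that fell and 0 rose, and the list median was 0.03. Farnesyl diphosphate synthase Fdps stood at -0.67 ± 0.29 (adjusted p = 0.274), squalene synthase Fdft1 at 0.45 ± 0.27 and fatty acid synthase Fasn at 0.04 ± 0.27.

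The extracellular matrix list also lay low. Of 36 measured genes on the extracellular matrix list 26 (72.2%) lay below 0, against 39.7% of all genes tested, with a median of -0.23. Past the threshold 2 fell and 0 rose, and 9 were lower and 2 higher of 36 at an unadjusted p under 0.05, against 195 and 388 of all 3885. Serpinh1, the collagen chaperone HSP47, read 4759, 5474 and 7207 at day 28 and 2712, 2769 and 2305 at day 45, without overlap, and fell by 1.15 ± 0.22 (adjusted p = 0.00519). Col2a1, the cartilage collagen, read 393.4, 1076 and 354.1 and then 178.2, 144.3 and 93.3, and fell by 1.96 ± 0.41 (adjusted p = 0.00984), at least 3.88-fold. Col2a1 had been at 3888 to 5335 in leg at day 0 and in EOM it fell by 2.06 ± 0.41 (adjusted p = 0.0327). It lost its leg call without day 28 replicate 2 and at a floor of 200 (-1.41, adjusted p = 0.0515). The fibrillar collagens of muscle stood at -0.48 ± 0.20 for Col1a2 and -0.38 ± 0.20 for Col3a1, and neither passed. Several proteins of the endoplasmic reticulum, singled out after their values were seen, fell as well. Rcn3, a reticulocalbin of the secretory pathway, fell by 1.31 ± 0.35 (adjusted p = 0.0449). The prolyl isomerase Fkbp11 fell by 1.29 ± 0.34 (adjusted p = 0.0382), the chaperone Erp29 by 1.60 ± 0.38 (adjusted p = 0.0224) and the translocon-associated Ssr3 by 0.73 ± 0.17 (adjusted p = 0.0194). The brightest Erp29 probe set stood at -0.34 ± 0.24 (adjusted p = 0.528), and Rcn3 and Ssr3 were each called in 1 of 2 probe sets. Each of these 4 genes lost its call without at least 1 single array, day 45 replicate 2 among them, and Fkbp11 and Erp29 also at a floor of 200.

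Both enzymes of creatine synthesis had a probe set that fell, and Gamt was singled out after its value was seen. Gatm, which makes guanidinoacetate, read 1727, 1106 and 1231 at day 28 and 323.2, 683.0 and 298.6 at day 45. Gatm fell by 1.72 ± 0.35 (adjusted p = 0.00678), with the ages apart. Gamt, which methylates guanidinoacetate to creatine, went from 2641 to 3621 at day 28 to 715.4 to 1966 at day 45 and fell by 1.20 ± 0.28 (adjusted p = 0.0217), a call lost without day 28 replicate 1 or 2 or day 45 replicate 2. The brightest Gamt probe set stood at -0.26 ± 0.30 and did not pass (adjusted p = 0.751). Slc16a6, a transporter of the monocarboxylate family, fell by 1.34 ± 0.23 (adjusted p = 0.00145). Arg2, mitochondrial arginase, fell by 2.06 ± 0.50 (adjusted p = 0.0226), at least 4.16-fold and not called without day 28 replicate 1 or 3, without day 45 replicate 1 or 3 or at a floor of 50.

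Rises among metabolic genes concerned the handling of fatty acids and glucose. On the fatty acid and ketone oxidation list 3 of 34 measured genes rose and 0 fell, against 39 (1%) and 37 (0.952%) of all 3885. Of the 34, 20 (58.8%) lay above 0, against 60% of all genes tested, with a median of 0.06 against 0.12. Pdk4, the kinase that shuts off pyruvate dehydrogenase and so spares glucose, read 922.8, 1983 and 781.0 at day 28 and 8140, 5373 and 3776 at day 45. Every day 45 array lay above every day 28 array, and Pdk4 rose by 2.28 ± 0.61 (adjusted p = 0.0449), 4.87-fold. Its EOM arrays read 1301, 1349 and 812.8 at day 28 and 1985, 1233 and 445.1 at day 45, and the difference between the changes, 2.41 ± 0.87, did not pass (adjusted p = 0.492). Cd36, the fatty acid transporter of the cell surface, read 375.8, 935.0 and 866.7 at day 28 and 2098, 1876 and 1373 at day 45. Cd36 rose by 1.38 ± 0.36 (adjusted p = 0.0353) and in its second probe set by 1.59 ± 0.42 (adjusted p = 0.0384). Ucp3, the mitochondrial uncoupling protein of skeletal muscle, went from 1622 to 2218 at day 28 to 3327 to 4983 at day 45. Ucp3 rose by 1.00 ± 0.25 (adjusted p = 0.0310), a call in 1 of its 2 probe sets.

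Enzymes of beta-oxidation itself gave no call. The long-chain dehydrogenase Acadl stood at -0.02 ± 0.19, the medium-chain Acadm at -0.04 ± 0.18, the trifunctional subunit Hadha at -0.12 ± 0.27 and the carnitine transferase Cpt1b at -0.06 ± 0.39. On the glycolysis and glycogen list 1 of 22 measured genes rose and 0 fell, with a median of 0.03. That gene was Slc2a4, the insulin-responsive glucose transporter GLUT4, which read 4618, 6864 and 10315 at day 28 and 11731, 14386 and 14975 at day 45. Slc2a4 rose by 0.98 ± 0.20 (adjusted p = 0.00662), although the ages lay close, with 10315 and 11731 as neighbours. It was called in 1 of its 2 probe sets. Of 36 measured genes of the respiratory chain and citrate cycle 0 passed by their brightest probe set in limma, 0 at an unadjusted p under 0.05 as well, and the median was -0.02. Cox6a1, the non-muscle form of a cytochrome oxidase subunit, fell in 1 of its 3 probe sets by 0.85 ± 0.20 (adjusted p = 0.0179). Pdk4, Cd36, Ucp3 and Slc2a4 all lost their calls under median scaling and without day 28 replicate 1. Pdk4 also lost its call at a floor of 50, without a filter, without a trend in the prior and without day 28 replicate 3 and, like Cd36, without day 45 replicate 1 or 2, and Ucp3 without day 28 replicate 2 or 3 or day 45 replicate 2 or 3.

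**Figure D4:**
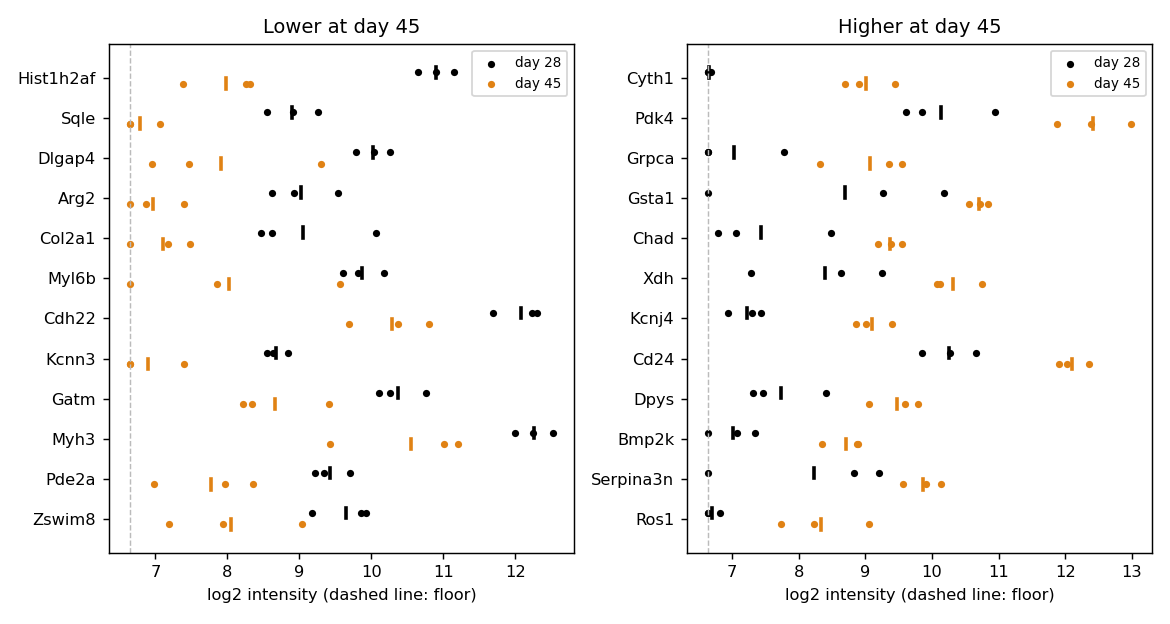
Log2 intensity on each array (dots) at day 28 (black) and day 45 (orange) in leg, with group means as short bars and the floor dashed, for the 12 largest falls and the 12 largest rises past the threshold by brightest probe set. The 2 ages do not overlap in any of these genes, which the choice required.

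Antioxidant and detoxifying enzymes gave a further group of rises. On the antioxidant and metallothionein list 2 of 28 measured genes rose and 0 fell, against 39 (1%) and 37 (0.952%) of all 3885. Of the 28, 19 (67.9%) lay above 0, against 60% of all genes tested, with a median of 0.23 against 0.12. Gsta1, a glutathione S-transferase, read 48.1, 616.4 and 1158 at day 28 and 1687, 1498 and 1831 at day 45 in its brightest probe set, and rose by 2.01 ± 0.50 (adjusted p = 0.0269). In a second of its 3 probe sets it read 139.8, 416.2 and 736.0 and then 1946, 2498 and 1916, and rose by 2.59 ± 0.50 (adjusted p = 0.00573). The remaining probe set did not pass. The Gsta1 probe sets may read several transferases of the alpha class. Gpx3, the secreted glutathione peroxidase, read 3767, 2028 and 5023 at day 28 and 5697, 8622 and 10327 at day 45, and rose by 1.24 ± 0.27 (adjusted p = 0.0129). Its other probe set, of 2, did not pass.

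Enzymes best known from liver, singled out after their values were seen, rose from low levels. Cyp2e1, the ethanol-inducible cytochrome P450, read 92.7, 60.1 and 278.7 at day 28 and 866.3, 480.3 and 440.5 at day 45, a rise by 2.01 ± 0.41 (adjusted p = 0.00678) or at least 4.04-fold. The brightest Cyp2e1 probe set stood at 0.35 ± 0.24 (adjusted p = 0.518). Fmo1, a flavin monooxygenase, rose by 1.38 ± 0.33 (adjusted p = 0.0217) after a difference of -1.70 between days 21 and 28 (adjusted p = 0.0161), an interval that shares the day 28 arrays. Akr7a3, an aldehyde reductase, rose by 1.33 ± 0.31 (adjusted p = 0.0192). Xdh, xanthine oxidoreductase of purine breakdown, read 156.1, 396.9 and 607.4 and then 1080, 1114 and 1719, and rose by 1.93 ± 0.48 (adjusted p = 0.0269). Dpys, dihydropyrimidinase of pyrimidine breakdown, rose by 1.75 ± 0.42 (adjusted p = 0.0217) in 1 of its 2 probe sets, and the other did not pass. Ces1d, a carboxylesterase, rose by 1.69 ± 0.39 (adjusted p = 0.0192), and its EOM difference was 2.63 ± 0.39 (adjusted p = 0.000698). From day 21 to day 28 the rising Cyp2e1 probe set had differed by -1.18, Xdh by -0.76 and Akr7a3 by -0.60. Dpys had differed by -0.07 and Ces1d by 0.47, and none of these earlier differences passed. Xdh, Gpx3 and the brightest Gsta1 probe set lost their calls under median scaling. Cyp2e1 lost its call without day 45 replicate 1. Xdh, Gpx3, Fmo1, Akr7a3, Dpys, Ces1d and the brightest Gsta1 probe set lost theirs without at least 1 single array each. Fmo1 lost its call also under median scaling, quantile normalisation and a floor of 200, Ces1d under quantile normalisation and floors of 50 and 200, and Xdh under quantile normalisation and a floor of 50.

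Cd24, a heavily glycosylated cell-surface protein found on regenerating muscle, B cells and epithelia, rose in all 3 of its probe sets. The brightest read 922.2, 1235 and 1626 at day 28 and 3851, 5226 and 4192 at day 45, and rose by 1.84 ± 0.38 (adjusted p = 0.00861). The other 2 rose by 2.14 ± 0.48 (adjusted p = 0.0145) and 2.87 ± 0.57 (adjusted p = 0.00662). Cd24 had been at 2759 to 3529 in leg at day 0 and 497.3 to 779.6 at day 21, so day 45 arrays exceeded both. In EOM Cd24 differed by 1.82 ± 0.38 (adjusted p = 0.0382), and the changes of the 2 muscles differed by 0.01 ± 0.54. The brightest probe set lost its leg call without day 28 replicate 1 or day 45 replicate 2.

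Transcription factors and stress genes rose in small number. On the immediate early and stress list 2 of 24 measured genes rose and 0 fell, against 39 (1%) and 37 (0.952%) of all 3885. Of the 24, 15 (62.5%) lay above 0, close to the 60% of all genes tested, with a median of 0.15 against 0.12. At an unadjusted p under 0.05 in limma 3 were higher and 1 lower, against 388 and 195 of all 3885. Klf4, a Krüppel-like factor of growth arrest, rose by 1.10 ± 0.27 (adjusted p = 0.0281), from 740.9 to 1325 at day 28 to 1634 to 2514 at day 45. Its other probe set, of 2, did not pass. Rrad, a small GTPase that inhibits calcium channels and is abundant in muscle, rose by 0.77 ± 0.20 (adjusted p = 0.0379), from 1012 to 1471 to 1720 to 2386. Klf10, the TGF-beta-induced early gene, rose by 1.24 ± 0.32 (adjusted p = 0.0353) in 1 of 2 probe sets, not the brightest. Nol3, the apoptosis repressor ARC of striated muscle, went from 1481 to 2384 to 3610 to 4126 and rose by 1.00 ± 0.22 (adjusted p = 0.0154). Myoc, myocilin, which in mouse muscle binds the dystrophin complex, read 706.4, 626.2 and 1094 at day 28 and 1691, 1895 and 3819 at day 45. Myoc rose by 1.55 ± 0.33 (adjusted p = 0.0106). Klf4, Rrad and Klf10 lost their calls under quantile normalisation and Rrad, Klf10 and Nol3 under median scaling, and each of these 5 genes lost it without day 28 replicate 2 as well as at least 1 other array.

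The remaining genes named for the size of their fall belong to other functions. Cdh22, a cadherin, read 4836, 5034 and 3298 at day 28 and 1780, 823.3 and 1326 at day 45 and fell by 1.79 ± 0.36 (adjusted p = 0.00710). Kcnn3, a small-conductance calcium-activated potassium channel that immature and denervated muscle carries, read 395.6, 375.6 and 458.1 and then 52.5, 168.7 and 67.5, with 2 day 45 arrays at the floor. Kcnn3 fell by 1.78 ± 0.43 (adjusted p = 0.0226), at least 3.43-fold. Dlgap4, a scaffold protein of synapses, fell by 2.12 ± 0.42 (adjusted p = 0.00662) in 1 of its 2 probe sets, and the other did not pass. Pde2a, a cyclic nucleotide phosphodiesterase, fell by 1.65 ± 0.36 (adjusted p = 0.0118) and Zswim8, a ubiquitin ligase adaptor, by 1.60 ± 0.41 (adjusted p = 0.0364). Zswim8 lost its call without a filter. Kcnn3 and Zswim8 lost theirs without several single arrays, day 28 replicate 1 among them, Cdh22 without day 45 replicate 2, Dlgap4 without day 45 replicate 1 and Pde2a without day 28 replicate 2 or day 45 replicate 1. Outside the 12, Alox15, a lipoxygenase of macrophages and eosinophils, read 1165, 1191 and 617.6 and then 79.9, 103.6 and 179.4, and fell by 2.95 ± 0.53 (adjusted p = 0.00215), at least 7.73-fold. Its brightest probe set stood at -0.76 ± 0.42 (adjusted p = 0.399). Alox15 fell by 2.93 ± 0.53 in EOM too (adjusted p = 0.0103). Capn6, a calpain without protease activity that restrains muscle growth in mice, fell by 1.11 ± 0.19 (adjusted p = 0.00160).

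Among the largest rises were several genes whose day 28 arrays lay at or near the floor. Cyth1, an exchange factor of ARF GTPases, read 83.8, 102.4 and 69.1 at day 28 and 482.0, 698.5 and 413.6 at day 45 and rose by 2.36 ± 0.51 (adjusted p = 0.0106), at least 5.14-fold. Kcnj4, an inward rectifier potassium channel, read 157.4, 123.0 and 173.7 and then 679.0, 518.4 and 466.7 and rose by 1.87 ± 0.44 (adjusted p = 0.0217). It was called in 1 of its 2 probe sets. Chad, chondroadherin, a matrix protein of cartilage, rose by 1.93 ± 0.46 (adjusted p = 0.0224) while the cartilage collagen Col2a1 fell. Serpina3n, an acute-phase serine protease inhibitor, rose by 1.65 ± 0.41 (adjusted p = 0.0268), Bmp2k, a kinase induced by BMP2, by 1.68 ± 0.34 (adjusted p = 0.00734), Ros1, a receptor tyrosine kinase, by 1.64 ± 0.34 (adjusted p = 0.00800) and Grpca by 2.05 ± 0.50 (adjusted p = 0.0247). From day 21 to day 28, which shares the day 28 arrays, Grpca had differed by -1.50, Cyth1 by -1.41 and Ros1 by -1.10. Kcnj4 had differed by -0.74, Serpina3n by -0.64, Bmp2k by -0.39 and Chad by -0.02, and none of these earlier differences passed. Chad and Serpina3n lost their calls under median scaling and quantile normalisation and without any 1 of several arrays, day 28 replicate 1 and all day 45 arrays among them. Chad lost it also at a floor of 50 (adjusted p = 0.146), as did Bmp2k (adjusted p = 0.0829), and Ros1 at a floor of 200, where its difference was 0.69 (adjusted p = 0.212). Cyth1 lost its call without day 45 replicate 2, Ros1 without day 45 replicate 1, and Kcnj4 and Grpca without replicate 1 or 2 of either age.

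Many systems of the fibre had no called member by the brightest probe set in limma. Their counts at an unadjusted p under 0.05 stand against 388 higher and 195 lower of all 3885 genes. On the neuromuscular junction list 0 of 17 passed and 1 was lower at an unadjusted p under 0.05. The adult receptor subunit Chrne stood at -0.23 ± 0.24 and the fetal subunit Chrng at 0.12 ± 0.17. Of 23 calcium handling genes 0 passed, with 1 higher and 2 lower at that level, and junctophilin Jph2 stood at -0.66 ± 0.25 (adjusted p = 0.208). Of 18 myogenic and growth regulators 0 passed, with 2 higher and 1 lower at that level, and the atrophy-linked factor Foxo1 stood at 1.13 ± 0.40 (adjusted p = 0.160). The 15 genes of androgen, polyamine and glucocorticoid response gave 0 calls, with 1 higher and 1 lower at that level. Of 9 clock genes 0 passed at either level, with 8 of 9 (88.9%) above 0, against 60% of all genes tested. Of 13 dystrophin complex and cytoskeleton genes 0 passed at either level, and of 23 heat shock genes 0 passed with 1 higher and 1 lower unadjusted. Of 30 proteasome and ubiquitin genes 0 passed, and 21 (70%) lay below 0, against 39.7% of all genes tested. Unadjusted, 4 were lower and 1 higher.

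Among markers of other cell types the leukocyte list stood out in its sum. The summed intensity of the 25 leukocyte markers measured was 18697 to 21307 at day 28 and 25604 to 39805 at day 45, without overlap, and 22 of 25 lay above 0, against 2332 of 3885 genes tested. The 1 that passed was Lgals3, galectin 3, made by macrophages. Lgals3 read 1272, 997.4 and 894.6 at day 28 and 2371, 2161 and 2151 at day 45 and rose by 1.09 ± 0.27 (adjusted p = 0.0269), a call lost under median scaling and without any 1 of the 6 arrays but day 28 replicate 1. The pan-leukocyte marker Ptprc stood at -0.09 ± 0.50. List counts take only probe sets with 1 symbol. A probe set named for both Fcgr2al1 and Fcgr2a, the latter on this list, rose by 1.77 (adjusted p = 0.0247). That call was kept in 10 of 17 alternative settings. The 15 adipocyte markers summed to 40844 to 46520 at day 28 and 49267 to 58803 at day 45, also without overlap, and 12 of 15 (80%) lay above 0 with a median of 0.36, against 60% of all genes tested. The 1 that rose was Slc2a4, which muscle fibres express too. Of single members, the fatty acid binding protein Fabp4 stood at -0.07 ± 0.25, adipsin Cfd at 0.64 ± 0.42 and leptin Lep at -0.16 ± 0.18, and none of these passed. Of the 15 genes, 3 lay below 0. The part of white cells and fat in the rises of Cd36, Gpx3 and Cd24 was not tested. The 8 erythroid markers summed to 48058 to 53440 and then 32810 to 43258, a drop of the sum without overlap and without a call. Of the 8, however, 4 (50%) lay above 0, against 60% of all genes tested, with a median of -0.05. The Schwann cell and axon markers (48205 to 50976 and 41571 to 54234), the skin markers (6680 to 9407 and 6033 to 8575) and the cartilage, bone and tendon markers (48308 to 56789 and 44862 to 62960) overlapped between the ages.

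The leg change was set beside that of EOM over the same days, which shares no array with it. In EOM 14 probe sets (0.21%) passed, 8 (0.12%) higher and 6 (0.09%) lower, but this count was 149 without EOM day 45 replicate 3, 7 without EOM day 45 replicate 2 and 2 without EOM day 28 replicate 1 or 2. Of the 63 probe sets that rose in leg, 46 (73%) were also above 0 in EOM, with an EOM median of 0.30, against 58.5% of all probe sets tested. Of the 69 that fell, 51 (73.9%) were below 0 in EOM, with an EOM median of -0.28, against 41.4% of all. The difference between the 2 changes passed for 3 probe sets (0.045%), those of Acta2, Myl9 and Sqle described above, all lower in leg. At an unadjusted p under 0.05 it held for 437. The count was 15 without EOM day 45 replicate 3, 13 without leg day 45 replicate 2, 7 without EOM day 28 replicate 3, 6 without leg day 28 replicate 2 and 5 without leg day 28 replicate 1 or 3. The differences of Acta2 and Myl9 passed with any 1 array left out. That of Sqle was lost without leg day 28 replicate 1, leg day 45 replicate 1, EOM day 28 replicate 1 or EOM day 45 replicate 1 or 2. The Sqle difference was also lost at a floor of 200, where it stood at -1.83 (adjusted p = 0.085).

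**Figure D5:**
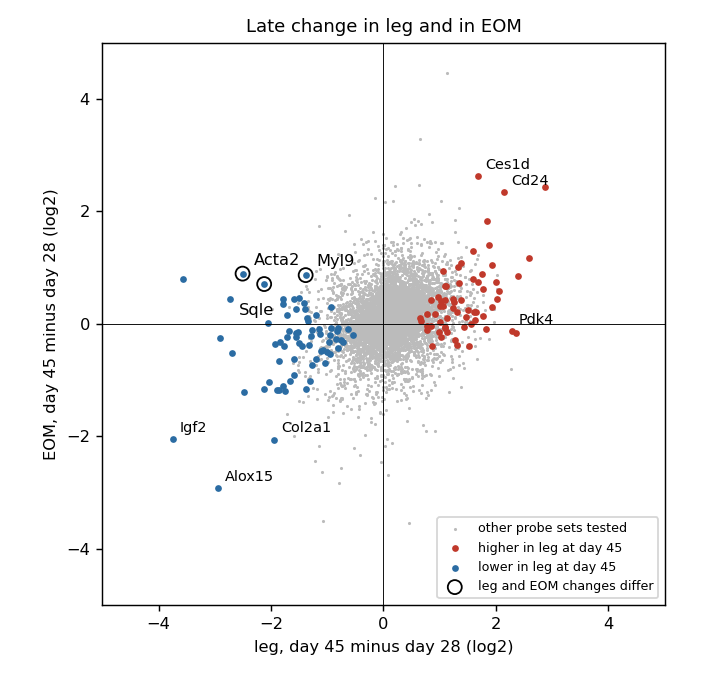
Change from day 28 to day 45 in EOM (log2, vertical axis) against that in leg (log2, horizontal axis) for 6667 probe sets, with those called in leg in red and blue. Circles mark Acta2, Sqle and Myl9, whose changes differ between the muscles, and Alox15, Col2a1, Igf2, Cd24 and Ces1d lie on the same side of 0 in both.

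Earlier ages in leg, on arrays not used in the comparison, show where the called probe sets came from. Of the 69 that fell late, 52 (75.4%) were lower at day 21 than at day 0, against 61.5% of all tested. Of the 63 that rose late, 20 (31.7%) were higher at day 21 than at day 0 and 42 (66.7%) lower, close to the 38.2% and 61.5% of all tested. Cd24 was one of these 42, and Alox15 had risen before its fall in its array values, having read 111.0, 356.8 and 156.8 at day 0 and 2615, 2213 and 5653 at day 21 before its fall. In the interval just before, from day 21 to day 28, 10 probe sets (0.15%) passed in leg, 3 higher and 7 (0.105%) lower, and Myh8 was among the 7. That interval shares the day 28 arrays with the late one, and its count was 20 without day 28 replicate 2, 16 without day 21 replicate 2 and 4 without day 21 replicate 3 or day 28 replicate 1.

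Calls for 17 probe sets held in 17 alternative settings of scaling, floor, filter, block and left-out arrays, all except the fit of the 6 arrays alone. Of these, 14 were lower, among them Igf2, 1 Acta2 probe set, Alox15, Sqle, Ccnd1, Ccnd3, Gpc3, Myl9, Gatm, Serpinh1, Slc16a6 and Capn6, and 3 higher, Grb14, Gsta1 and Cd24 in 1 probe set each.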

How the data were processed

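Total RNA of 36 rat muscle samples had been hybridised to Affymetrix RG-U34A arrays, per the labels. The deposited table holds 1 linear intensity per probe set and array, scaled by the authors to a common trimmed mean, as the values show. How probes were summarised is not stated in the sources used here. Array number, not depth, limits the precision.

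Values were floored at 100, turned to log2, and tested where they exceeded the 40th percentile (intensity 322) on at least 3 arrays, without the 59 control probe sets, which left 6667 of 8799. Probe sets at the floor have no order below it, so their folds are written "at least". The platform annotation, dated 2016 in its header, named 7006 probe sets with 1 symbol and 308 with several, while 1426 are unnamed, and 6994 matched a RefSeq gene by identifier. For counts of genes each gene has its "brightest" probe set, the one with the highest mean log2 value.

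Means of 12 groups were fitted with limma 3.58.1 in R 4.3.3 (trended prior, 24 residual degrees of freedom), and p-values adjusted by Benjamini-Hochberg over all 6667. The fit was tested on simulated data. Errors are standard errors of this fit, with the moderated spread of all 12 groups, so they can be smaller or larger than the spread of the 6 arrays compared. Figures were drawn with matplotlib 3.10.9.

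The comparison, the 27 gene lists (775 genes, 46 on several lists) and the alternatives were chosen with earlier results of these data known. Named by rule were the 12 largest called differences each way with arrays apart, the 6 largest differences between muscles each way, up to 4 called genes per list (or 2 of smallest p as values), and 6 myosins with Chrne and Chrng. Genes named through another probe set, such as Igf2, Acta2, Ccnd1, Ccnd3, Eno1, Myl9 and Alox15, and genes outside the rule were chosen after their values were seen.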

Additional observations from a re-analysis of the deposited data

Results flagged for a closer look

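For 3 probe sets the change from day 28 to day 45 in leg differed from that in EOM by the test of the difference itself. Acta2 differed by -3.40, Myl9 by -2.25 and Sqle by -2.83 (log2, leg change minus EOM change), and all 3 arrays of leg at day 45 lay below all 3 at day 28 for each gene. No explanation was tested.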

How the results depend on the processing

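The 132 calls in leg became 0 with the 6 arrays alone (753 at an unadjusted p under 0.05) and 73 with the 18 leg arrays only, an alternative added after seeing the data, and leaving out 1 array gave 59 to 149. Floors, filters, normalisations and a prior without trend gave counts within 1.5 times the main one. The replicate block gave 178, which held all 132, but the numbers do not pair these arrays (correlations of same-numbered deviations -0.03, -0.04 and 0.15). The difference between leg and EOM, 3 calls, gave 5 with median scaling, 5 with the replicate block, 0 with the groups compared alone (297 unadjusted) and 2 to 15 with 1 array left out. EOM, 14 calls, gave 8 without a filter, 6 with the stricter filter, 32 with median scaling, 26 with quantile normalisation, 0 with the groups compared alone (414 unadjusted), 7 without a trend in the prior, 33 with the replicate block and 2 to 149 with 1 array left out. Leg day 28 against day 21, 10 calls, gave 16 without a filter, 0 with the groups compared alone (485 unadjusted), 28 with the replicate block, 2 with the 18 leg arrays and 4 to 20 with 1 array left out. Of 2644 alternative values for 148 named probe sets, 2038 kept their direction and side of the threshold, 598 lost it, 4 gained it and 4 reversed. Those were Chrng at -0.064 with median scaling and Chrng (-0.039 to 0.26) and Myh4 (-0.17 to 0.017) with 1 array left out, and neither gene was called. The cause was not tested for any of these. Signals near the floor and near the top of the scale can hide or shrink a difference.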
